A study of Mus musculus with 2 samples.

Results

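The genes described here encode the platelet glycoproteins and the megakaryocyte integrin, with their ligand von Willebrand factor, as measured in bone marrow neutrophils of mice. They are 10 genes: Gp1ba, Gp1bb, Gp5, Gp9, Gp6, Clec1b, Treml1, Itga2b, Itgb3 and Vwf. Every probe set annotated to 1 of them alone was taken, which gave 11 probe sets of 9 genes among 34945 such probe sets of 18193 genes on the array. Gp1ba has no value here. A further probe set is annotated to both Septin5 and Gp1bb and is given separately.

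The cells came from mice labelled Jdp2 KO and from mice labelled Jdp2 WT, both of mixed C57BL/6 and 129/J background, and had been sorted from bone marrow as CD11b+, Ly6G+ cells low in Ly6C. Jdp2 encodes an AP-1 family member of the bZIP class, studied chiefly as a transcriptional repressor. Each label is represented by 1 array, so the variation among mice is unknown and nothing below carries a p-value. Not given in the sources are the deleted part of Jdp2, the cells in which it is deleted, the age of the mice and the number of mice behind each array. The stronger Jdp2 probe set (1450350_a_at) read 12.38 on the Jdp2 KO array and 11.997 on the WT array, so the targeted gene does not check the labels. Values are log2 signals, and a difference is the Jdp2 KO array minus the WT array.

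Platelets carry receptors that let them stop at a damaged vessel wall. The glycoprotein Ib-IX-V complex catches von Willebrand factor, glycoprotein VI binds collagen, and the integrin of the Itga2b and Itgb3 products binds fibrinogen once the platelet is activated. Megakaryocytes, the bone marrow cells that shed platelets, make these transcripts under GATA and ETS family transcription factors. Neutrophils and platelets adhere to each other through P-selectin and its ligand and through the neutrophil integrin that contains the Itgam product.

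Among the 9 measured genes, 2 subunits of the glycoprotein Ib-IX-V complex showed the largest differences, and both were higher on the Jdp2 KO array, Gp1bb by 1.09 and Gp9 by 0.76. Clec1b and Treml1 were higher by 0.25 and 0.23, while Itga2b (-0.34) and the brighter probe set of Itgb3 (-0.20) were lower. Gp5, Gp6 and Vwf gave weak signals on both arrays. The only gene of the 9 past a 2-fold difference was Gp1bb.

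The promoter windows of 3 genes are shown because they belong to the 2 genes with the largest differences and to the integrin gene that lay lowest. Each window holds the 250 bases before the annotated start of the gene, from RefSeq on mouse build GRCm38.p6, read 5′ to 3′ on the gene's strand. The windows are chr16:18622404-18622653, - strand for Gp1bb, chr6:87777820-87778069, + strand for Gp9 and chr11:102469884-102470133, - strand for Itga2b. Capitals mark the motifs GATAA (GATA core), AGGAAG (ETS family) and TGANTCA (AP-1, any middle base), on either strand.
Gp1bb: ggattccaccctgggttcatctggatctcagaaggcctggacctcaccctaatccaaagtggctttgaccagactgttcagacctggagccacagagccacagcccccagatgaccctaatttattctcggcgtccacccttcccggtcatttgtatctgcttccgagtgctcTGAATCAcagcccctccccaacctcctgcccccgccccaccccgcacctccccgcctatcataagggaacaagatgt
Gp9: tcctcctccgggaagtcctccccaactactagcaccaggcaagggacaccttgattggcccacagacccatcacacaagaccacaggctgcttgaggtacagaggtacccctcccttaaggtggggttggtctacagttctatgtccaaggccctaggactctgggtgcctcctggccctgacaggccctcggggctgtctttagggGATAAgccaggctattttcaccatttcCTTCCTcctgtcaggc
Itga2b: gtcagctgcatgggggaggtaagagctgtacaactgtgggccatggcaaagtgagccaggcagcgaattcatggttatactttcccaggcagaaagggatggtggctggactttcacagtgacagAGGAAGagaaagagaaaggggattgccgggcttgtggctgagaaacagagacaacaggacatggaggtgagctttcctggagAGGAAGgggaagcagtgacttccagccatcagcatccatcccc

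A window was found for 8 of the 10 genes, all but Itgb3 and Vwf. The GATA core GATAA occurred in 5 of the 8 windows, those of Gp1ba, Gp5, Gp9, Gp6 and Clec1b, and in 22.6% of 32851 windows of the same length in the whole table. The longer spelling AGATAA, which contains GATAA, occurred in 2, against 9.99% of all windows. The ETS spelling AGGAAG occurred in 4, those of Gp1ba, Gp5, Gp9 and Itga2b, and in 29.5% of all windows. In Gp9 the GATA core starts 43 bases and the ETS spelling 16 bases before the gene's start, and in Itga2b the ETS spelling starts at 125 and 43 bases. The AP-1 spelling TGANTCA occurred once, in Gp1bb at 77 bases before the start, where it reads TGAATCA, and in 6.75% of all windows. The stricter AP-1 spelling TGACTCA, which is contained in TGANTCA, and the related spelling TGACGTCA occurred in none of the 8 windows, against 4.46% and 1.55% of all windows. These are matches of letters in a short window, and no binding was measured. Other spellings of GATA, ETS and AP-1 sites were not searched. A window without a mark can therefore still hold such sites, and this includes Gp1bb for GATA and ETS.

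Gp1bb encodes the beta chain of glycoprotein Ib, the leucine-rich subunit that is disulphide-linked to the chain that binds von Willebrand factor. Its probe set 1422977_at read 8.08 on the Jdp2 KO array and 6.98 on the WT array, a difference of 1.09, or 2.13-fold. Its other probe set, 1456427_at, read 7.93 on the Jdp2 KO array and 7.08 on the WT array, a difference of 0.85, or 1.80-fold. The 2 probe sets thus pointed the same way and lay 0.25 apart, close to the median gap of 0.28 among the 2764 genes with exactly 2 passing probe sets. On the mean of both probe sets the difference was 0.97, which is 1.96-fold and short of the 2-fold size.

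The probe set annotated to both Septin5 and Gp1bb (1452357_at) lay in the opposite direction. It read 9.74 on the Jdp2 KO array and 10.25 on the WT array, a difference of -0.51. Septin5, which encodes a filament-forming GTPase, is the next gene to Gp1bb in the order of the gene table, and no probe set of its own was found. Which of the 2 transcripts this probe set read was not tested.

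Gp9 encodes the small leucine-rich subunit of the same receptor, which the complex needs to reach the cell surface. It read 7.76 on the Jdp2 KO array and 7.00 on the WT array, a difference of 0.76, or 1.70-fold. Among all 11168 genes that passed the level filter, 618 genes (5.53%) had a difference at least as high, and for Gp1bb the number was 269 (2.41%). A gene passed this filter when the higher of its 2 values reached the median of that array, which was 5.67 for Jdp2 KO and 5.65 for WT. The middle of the distribution, from the 5th to the 95th percentile of the passing genes, ran from -0.75 to 0.81, so Gp9 lay just inside it and Gp1bb outside.

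Gp5 encodes the subunit of the complex that thrombin cleaves. It read 4.74 on the Jdp2 KO array and 4.42 on the WT array, a difference of 0.32. Both values lay under the median of their array, at percentile ranks of 33.4 on Jdp2 KO and 27.6 on WT, so no fold is given.

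**Figure D1:**
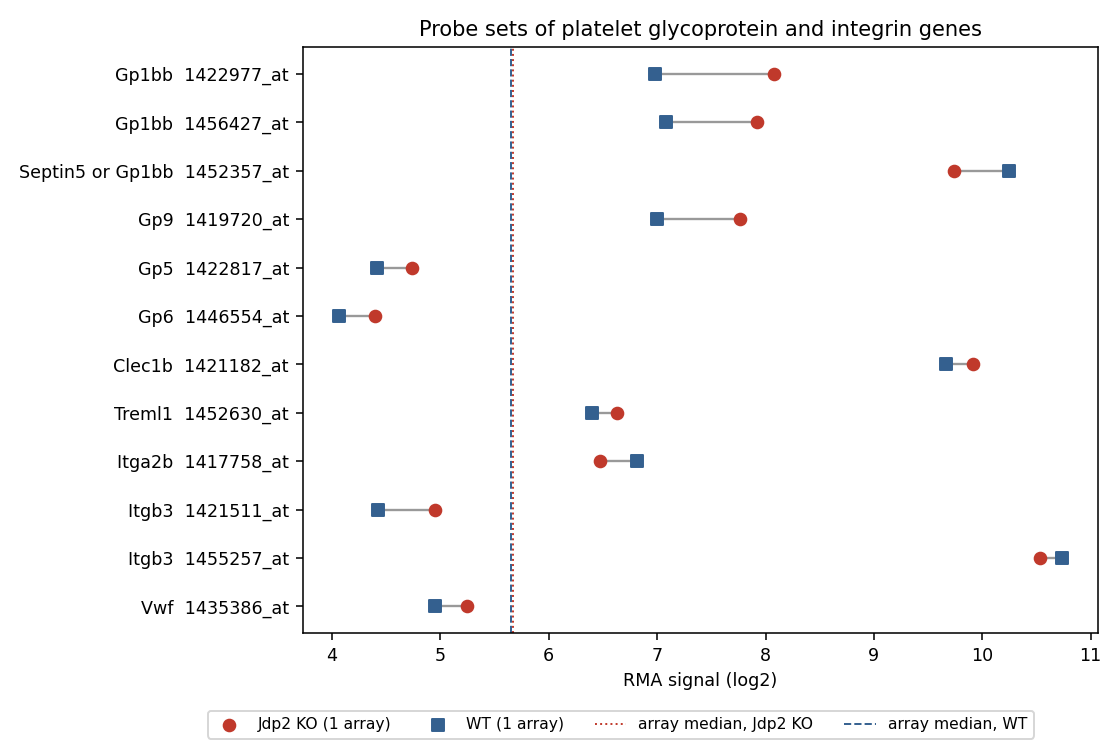
Log2 RMA signal (horizontal axis) of each probe set of the platelet glycoprotein and integrin genes on the Jdp2 KO array (red circles) and the WT array (blue squares), 1 array each, with the median of each array as a vertical line. The 2 probe sets of Gp1bb and that of Gp9 are furthest apart with Jdp2 KO higher, while the probe set shared with Septin5 has WT higher; levels of different probe sets are not comparable with each other.

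Clec1b encodes the C-type lectin receptor CLEC-2, which binds podoplanin and is known from mouse platelets and also from mouse myeloid cells. It read 9.91 on the Jdp2 KO array and 9.67 on the WT array, percentile ranks of 88.2 on Jdp2 KO and 86.4 on WT among all probe sets, a difference of 0.25. Its neighbour in the gene table, the lectin gene Clec12b, lay lower at weak signal (4.55 on Jdp2 KO against 5.10 on WT, difference -0.55). A difference of the size seen for Clec1b or more was reached by 21.9% of passing genes.

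Treml1 encodes a receptor of the Trem family that is stored in platelet alpha granules and brought to the surface on activation. It read 6.63 on the Jdp2 KO array and 6.40 on the WT array, a difference of 0.23. Of its neighbours, the macrophage receptor gene Trem2 read 6.41 on the Jdp2 KO array and 5.84 on the WT array with the probe set of highest signal (0.56), but another Trem2 probe set differed by -0.60. Gp6, encoding the collagen receptor that signals through the Fcer1g product, read 4.40 on the Jdp2 KO array and 4.06 on the WT array. Its difference of 0.34 lay wholly under the array medians. Fcer1g itself, which neutrophils also express, read 13.498 on the Jdp2 KO array and 13.51 on the WT array (difference -0.02).

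Itga2b encodes the alpha subunit of the fibrinogen receptor, which is the classical surface marker of the megakaryocyte lineage. It read 6.47 on the Jdp2 KO array and 6.81 on the WT array, a difference of -0.34. A difference at least as low was found for 19.7% of passing genes. Gp1bb and Itga2b therefore differed from each other by 1.43 in their differences, and Gp9 and Itga2b by 1.10. All 3 are markers of the same lineage, and a reason for these gaps was not tested. Itga2b has 1 probe set on this array.

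Itgb3 encodes the beta subunit of the same integrin, which also pairs with the Itgav product in macrophages and other cells. Its stronger probe set, 1455257_at, read 10.54 on the Jdp2 KO array and 10.73 on the WT array, percentile ranks of 91.6 on Jdp2 KO and 92.4 on WT, with a difference of -0.20. Its weaker probe set, 1421511_at, read 4.95 on the Jdp2 KO array and 4.43 on the WT array, a difference of 0.52 under both array medians. The direction for Itgb3 thus depends on the probe set, and the mean of both was 0.16. Itgav, chosen after its values were seen, had 5 probe sets, of which the strongest read 11.72 on the Jdp2 KO array and 11.75 on the WT array (-0.03) and the others differed by 0.18 to 0.60.

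Vwf encodes the ligand of the glycoprotein Ib complex and is made by megakaryocytes and endothelial cells. It read 5.25 on the Jdp2 KO array and 4.95 on the WT array, a difference of 0.30, with both values under the array median. Of the 14 endothelial markers, 5 passed the level filter. Of these 5, 0 were at least 2-fold lower, beside 2.33% of all passing genes, and 1 was at least 2-fold higher, beside 3.06%. The higher gene was Eng, encoding the TGF-beta co-receptor endoglin, at 6.74 on Jdp2 KO and 5.17 on WT (1.58). It came to 2.14-fold after its weak WT value was set to that array's median, but its other probe set differed by -0.40. The call was lost when both probe sets were averaged, when both values had to reach the array median and with a filter at the 75th percentile. The endothelial cadherin gene Cdh5 was weak on both arrays, at 4.11 on Jdp2 KO and 3.84 on WT. The endothelial list's summed linear signal was 616 on the Jdp2 KO array and 514 on the WT array, and 509 on Jdp2 KO and 478 on WT without Eng.

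Over the 9 measured genes, 1 was at least 2-fold higher in the Jdp2 KO array, beside 2.45% of all 18193 genes, and 0 were at least 2-fold lower, beside 1.85%. Of the 9, 7 had a difference above 0, beside 46.5% of all genes, and their median was 0.30, beside -0.03 for all genes. Of the 6 that passed the level filter, 1 was at least 2-fold higher, beside 3.06% of the 11168 passing genes, 0 were at least 2-fold lower, beside 2.33%, and 4 lay above 0, beside 44.8%. The median of these 6 was 0.24, beside -0.04. The 3 genes that did not pass, Gp5, Gp6 and Vwf, differed by 0.30 to 0.34 at signals no higher than a percentile rank of 42.7. A single gene past 2-fold among so few, on 2 arrays, cannot be set apart from the background by any test available here.

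**Figure D2:**
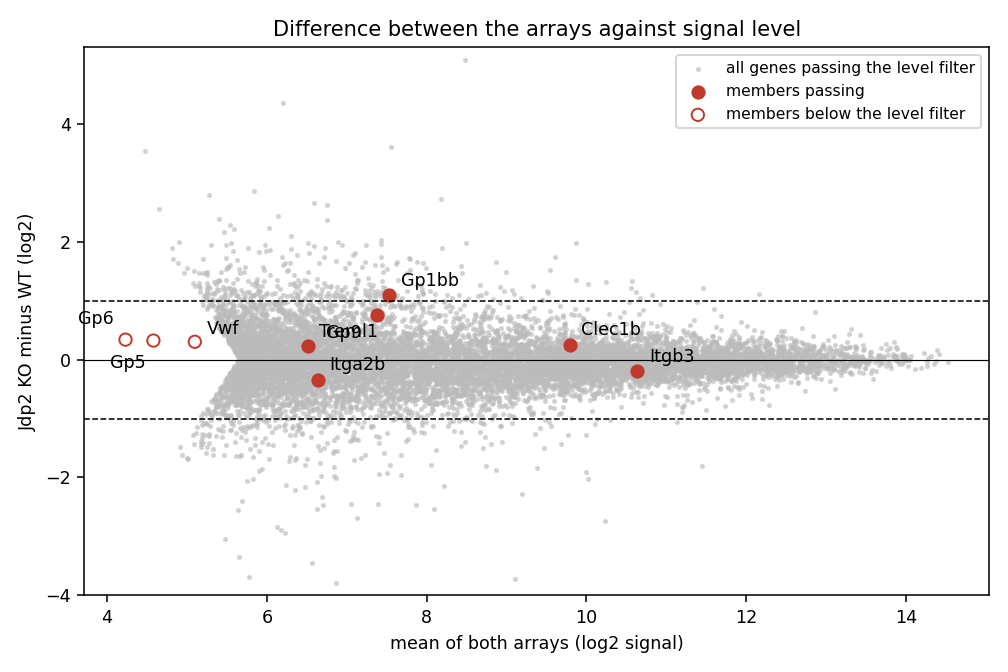
Difference between the arrays (Jdp2 KO minus WT, log2, vertical axis) against the mean signal of both arrays (log2, horizontal axis) for the 11168 passing genes (grey) and the 9 measured members (red, open where the gene did not pass). Dashed lines mark 2-fold; Gp1bb lies just above the upper line at 1.09, Gp9 below it at 0.76, and the other members lie between -0.34 and 0.34.

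Other platelet transcripts were not uniformly higher in the Jdp2 KO array. The alpha granule chemokine genes Ppbp (1.97) and Pf4 (1.66) differed more than any of the glycoprotein genes. Tubb1, encoding the tubulin of the platelet's marginal band, differed by 0.12, and P-selectin, Selp, by -0.24. The 3 probe sets of Selp ran from -0.24 to 0.15, so its direction depends on the probe set. Several other markers were weak on both arrays, among them the thrombin receptor gene F2rl2 (4.90 on Jdp2 KO against 4.95 on WT) and the neurogranin gene Nrgn (3.70 on Jdp2 KO against 3.97 on WT). Of the 18 megakaryocyte and platelet markers, which include the 10 genes of this account, 16 were measured and 10 passed, with 3 at least 2-fold higher and 0 lower. Over all passing genes the shares were 3.06% higher and 2.33% lower, and these stand beside the counts of every list below. Their summed linear signal over the 16 was 6720 on the Jdp2 KO array and 4653 on the WT array, a ratio of 1.44. Without Ppbp and Pf4 the other 14 summed to 4031 on the Jdp2 KO array and 3917 on the WT array, a ratio of 1.03. Such a sum weighs the brightest probe sets most, here those of Itgb3 and Clec1b. Within it the glycoprotein Ib-IX-V genes summed to 514 on Jdp2 KO and 276 on WT, a ratio of 1.86. Gp6, Clec1b and Treml1 summed to 1084 on Jdp2 KO and 915 on WT (1.19), and Itga2b, Itgb3 and Vwf to 1611 on Jdp2 KO and 1845 on WT (0.87). In RNA of a sorted population, a change in the number of platelets or megakaryocytes cannot be told apart from a change in RNA per cell.

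Markers of other cell types differed between the arrays to unlike degrees and in unlike directions. Of 18 monocyte and macrophage markers, 17 were measured and 16 passed, with a median of 1.17. At least 2-fold higher in the Jdp2 KO array were 13 of the 16, beside 3.06% of all passing genes, and 0 were lower, beside 2.33%. The count was 8 when both values of a gene had to reach the array median. Their summed linear signal was 13392 on the Jdp2 KO array and 7730 on the WT array, and no marker is listed at 0, since these signals never reach it. Adgre1, the macrophage marker F4/80, read 9.95 on the Jdp2 KO array and 8.70 on the WT array. Macrophages, which take up platelets, can express Itgb3 and Clec1b too, and the part of monocytes and macrophages in the platelet values was not tested. Neutrophil markers were strong on both arrays: all 13 measured passed, with signals from 10.67 to 14.51 on the Jdp2 KO array and from 11.09 to 14.54 on the WT array and a median difference of -0.07. Erythroid cells share progenitors with megakaryocytes, and of their markers 3 of the 11 measured passed, 1 was at least 2-fold lower (Car2, -1.29) and 0 were higher. Among stem and progenitor markers, 2 of 7 passing genes were at least 2-fold higher, Cd48 (1.98) and Mecom (1.34). The 3 probe sets of Mecom ran from 0.13 to 1.34, and which cells gave the Cd48 signal was not tested. Of B cell markers 1 of 5 was higher (Igll1, 1.15) and of T and NK cell markers 0 of 5, with 0 lower in each of these lists. With shared probe sets left out, 1 B cell marker was at least 2-fold lower, and the B cell list's summed linear signal was 1162 on Jdp2 KO and 1560 on WT. The WT values of Cd48 and Igll1 lay under the array median. The call for Igll1 was lost with that value raised (1.60-fold), with a filter on both values, with the stricter filter and with averaged probe sets, and the stem and progenitor count was 1 under the last 3 of these.

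Platelet surface receptors outside the 10 genes had no member past 2-fold in either direction. Of 23 listed, 11 passed. Of these 11, 3 lay above 0, beside 44.8% of all passing genes, and the median was -0.24, beside -0.04. The nearest to 2-fold was P2ry12, encoding the platelet ADP receptor that is targeted by clopidogrel, at 7.17 on the Jdp2 KO array and 6.18 on the WT array (0.99), and it passed 2-fold after quantile or loess normalisation, which brought the list's count to 1. The scavenger receptor gene Cd36 read 6.37 on Jdp2 KO against 5.52 on WT (0.86), and its 3 probe sets ran from 0.65 to 1.07. The prostacyclin receptor gene Ptgir lay lower at 8.88 on Jdp2 KO against 9.77 on WT (-0.89), as did the laminin receptor gene Itga6 at 8.61 on Jdp2 KO against 9.41 on WT (-0.80).

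The signalling genes that link these receptors to the integrin mostly lay close between the arrays. Of 22 measured genes, only the adaptor gene Lat did not pass, at 5.61 on Jdp2 KO and 5.25 on WT. Of the 21 passing genes, 1 was at least 2-fold higher, 0 were lower and the median was -0.10. The exception was the Src family kinase gene Fyn, which read 7.89 on the Jdp2 KO array and 5.89 on the WT array (1.995), with its other probe set at 0.71. The kinase gene Syk differed by -0.37, the Rap activator gene Rasgrp2 by -0.28 and talin, Tln1, which switches integrins on from inside the cell, by -0.26. The 4 probe sets of Syk ran from -0.59 to 0.22. Those of Rasgrp2 ran from -0.75 to -0.21, and those of Tln1 from -0.58 to -0.26. These genes act in neutrophils as well as in platelets.

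Among alpha granule cargo and biogenesis genes, 3 of 15 passing genes were at least 2-fold higher and 1 was at least 2-fold lower. Their median was 0.13, and -0.09 with no level filter. Beside Ppbp and Pf4 the third was F13a1, the A chain of coagulation factor XIII, at 7.35 on Jdp2 KO against 4.92 on WT, or 3.25-fold after its weak WT value was set to that array's median. F13a1 stands in the monocyte and macrophage list as well. The gene that lay lower was Vps33b, which is needed to form alpha granules, at 6.03 on Jdp2 KO against 7.62 on WT (-1.59). The cytoskeleton list had 1 of 17 passing genes at least 2-fold higher and 0 lower. This was the tropomyosin gene Tpm1 (1.05), although its 4 probe sets ran from -0.30 to 1.05 and their mean fell short of 2-fold, and Myl9, encoding a myosin light chain of contractile and megakaryocytic cells, followed at 0.87.

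Megakaryocyte transcription factor genes had 0 of 12 passing members past 2-fold in either direction and a median of 0.02. Nfe2, a bZIP factor of platelet formation that is also expressed in granulocytes, read 11.79 on the Jdp2 KO array and 12.20 on the WT array (-0.41). Fli1, the ETS factor of the lineage, differed by 0.13. Mef2c (0.96) and Tal1 (-0.71) differed most, and Mef2c passed 2-fold after quantile or loess normalisation and with the mean of its 5 probe sets (1.01), which ran from 0.28 to 1.68. Gata1, the GATA factor of megakaryocytes and erythroid cells, read 5.27 on the Jdp2 KO array and 4.14 on the WT array, a difference of 1.13 wholly under the array medians, so it counted past 2-fold only with no level filter. The 4 passing arachidonate enzyme genes differed by -0.39 to 0.40, the highest being the platelet lipoxygenase gene Alox12 (0.40).

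In the list of binding partners of platelets and related genes, Selplg, Itgam and Pdpn differed by less than 2-fold. Selplg, encoding the P-selectin ligand, read 12.33 on the Jdp2 KO array and 12.28 on the WT array (0.05). Itgam, whose integrin binds glycoprotein Ib alpha, read 10.67 on Jdp2 KO against 11.09 on WT (-0.43). Pdpn, encoding the ligand of CLEC-2, read 8.75 on Jdp2 KO against 8.97 on WT (-0.22), and which cells gave this signal was not tested. Of the 9 passing genes of this list, 1 was at least 2-fold lower and 0 were higher. This was Lman1 (-1.26), which encodes a cargo receptor for coagulation factors and whose 5 probe sets ran from -1.26 to 0.33, so that 0 genes were lower once probe sets were averaged or shared ones left out.

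**Figure D3:**
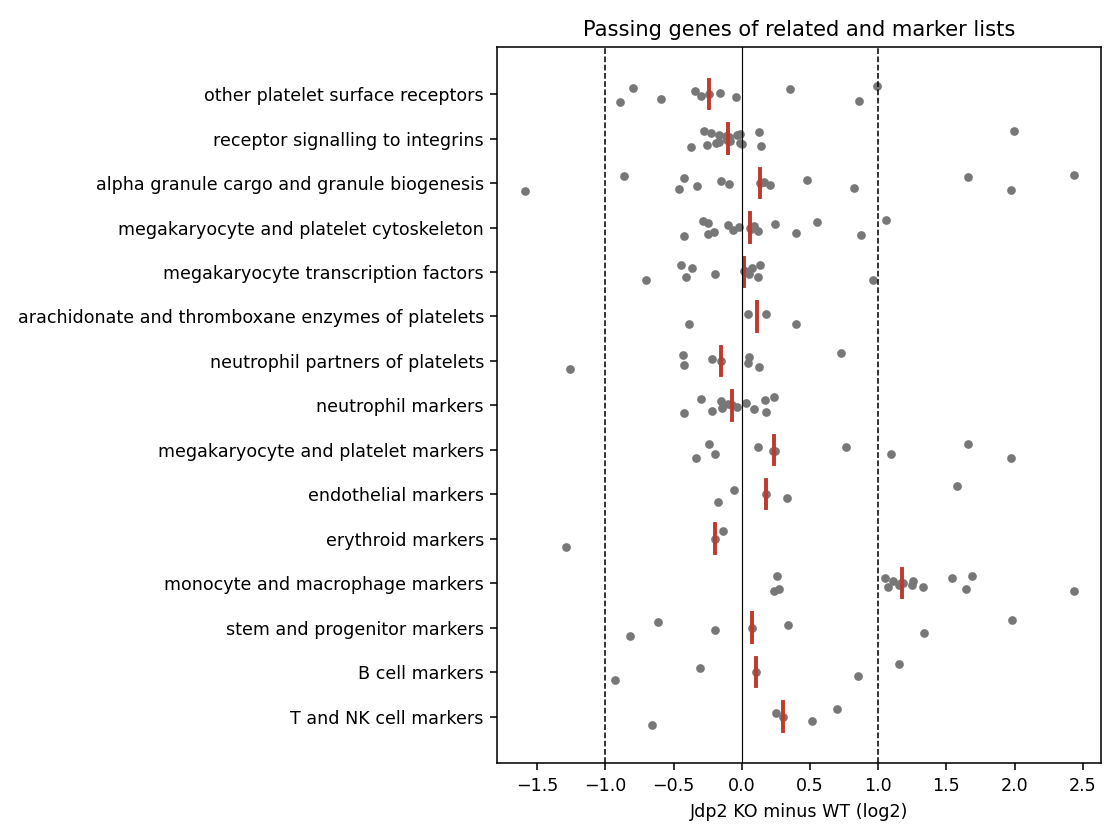
Differences (Jdp2 KO minus WT, log2, horizontal axis) of the passing genes of each related list and marker list, 1 grey point per gene, with the list's median as a red bar and dashed lines at 2-fold. Monocyte and macrophage markers lie to the right with a median of 1.17, while the medians of the lists of platelet receptors, signalling genes and transcription factors lie between -0.24 and 0.02.

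The genes next to the members in the gene table gave no shared pattern. Rab43, next to Gp9 and encoding a small GTPase, lay lower at 8.10 on Jdp2 KO against 8.67 on WT (-0.57), opposite to Gp9, with its other probe sets at -0.10 and -0.66. Atp13a3, next to Gp5, differed by 0.16, and Slc25a11, next to Gp1ba, by -0.02. Gpatch8, next to Itga2b, differed by 0.05, with its other probe sets at -0.14 and -0.18.

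**Figure D4:**
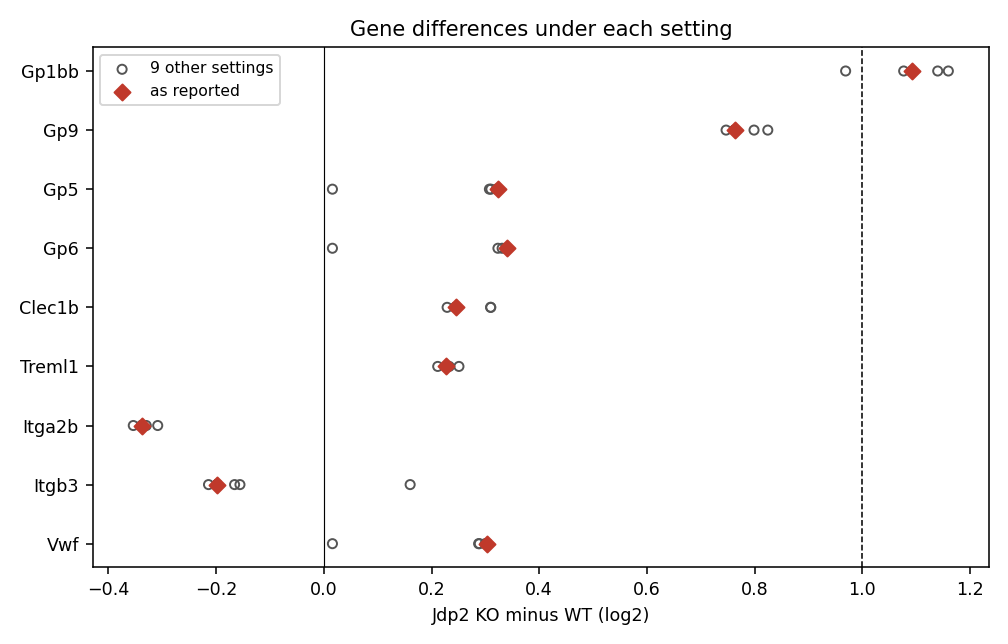
Difference of each measured gene (Jdp2 KO minus WT, log2, horizontal axis) as reported (red diamonds) and under 9 other settings of scaling, filter and probe set choice (open circles, many overlapping). Gp1bb stays between 0.97 and 1.16 and Gp9 between 0.75 and 0.82, while Itgb3 crosses 0 with the mean of its probe sets.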

How the data were processed

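Per the submitters' processing notes the authors summarised the arrays with RMA, and the deposited values are log2 probe set signals. Its version and options are not given in the sources. The table held 45101 probe sets, 64 of them controls. Of the other 45037, 34945 carried a single gene symbol, 932 more than 1, and 9160 had no entry in the annotation. Symbols were updated by Entrez identifier (34741 matched).

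Each gene took the value of its brightest probe set (mean of both arrays) and was counted by a log2 difference of at least 1. With 1 array per group no test was run, and the number of arrays limits the precision. RMA has no detection call, so weak values hold background, which understates folds. A fold whose weak value was first set to its array's median is named as such. Summed linear signals add 2 to the power of each gene's log2 value.

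The members, the lists and the rule for named genes were chosen with earlier results of these data known. Named were all members, up to 4 passing genes of a list with the largest absolute difference, and fixed landmark and neighbouring genes; F2rl2, Nrgn, Lat, Selp, Cdh5, Adgre1, Fcer1g, Pdpn, Selplg and Itgav were picked with their values known. The counting of calls was checked only on simulated shifts far larger than 2-fold, which does not bear on differences near that size. Alternatives were 3 level filters, 3 scalings, 2 choices of probe set and low values raised to the median. Tools were Python 3.11.15, pandas 2.3.3 and statsmodels 0.14.6 (loess span 0.3).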

Additional observations from a re-analysis of the deposited data

How the results depend on the processing

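No paired analysis was possible because each genotype has 1 array. The differences of Gp1bb, Gp9, Clec1b, Treml1 and Itga2b kept their direction under the 3 scalings. The other alternatives cannot move Gp9, Clec1b, Treml1 and Itga2b, which have 1 probe set each and lie above the array medians. Gp1bb ran from 0.97 to 1.16, and its 2-fold call was lost only with the mean of all probe sets, where 0 members in place of 1 were at least 2-fold higher. Itgb3 was at 0.16 with that mean, against -0.20. Gp5, Gp6 and Vwf, both of whose values lie under the array medians, have no measurable difference once low values are raised. The number of members above 0 was 7 of 9 with no level filter and 2 of 3 with a filter at the 75th percentile, against 4 of 6, since these filters test other numbers of genes. The members' median ran from 0.22 to 0.30. For all genes, 342 were at least 2-fold higher and 260 lower. These counts were 110 and 87 with the filter at the 75th percentile, and 184 and 145 with both values at or above the median. They were 183 and 171 when probe sets were averaged, and 222 and 182 with low values raised. At the 75th percentile the endothelial and erythroid lists had no gene left. Scaling moved the median of passing genes by under 0.1. No value past 2-fold among the results tried changed sign.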
